A study of Homo sapiens with 3 samples.

Results

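The genes described here encode 10 factors that silence transposons and build heterochromatin: TRIM28, SETDB1, TASOR, MPHOSPH8, PPHLN1, MORC2, ATRX, DAXX, CBX5 and SUV39H2. They were taken by name, through GENCODE release 44, from the 58051 gene rows of each count file, and all 10 were found. The libraries hold total RNA, depleted of ribosomal RNA, from 3 replicates of H9, an established human embryonic stem cell line of wild-type (WT) genotype, untreated and grown without feeder cells. There is 1 condition, so levels are described and no difference between groups was tested. The labels do not say whether the replicates were separate cultures, so that the spread between them may be technical.

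Heterochromatin is compact, mostly silent chromatin whose histone H3 carries methyl groups on lysine 9 (H3K9). Krüppel-associated box (KRAB) zinc finger proteins bind transposon sequences and recruit TRIM28, also known as KAP1, a scaffold that brings in the H3K9 methyltransferase SETDB1. The HUSH complex, made of TASOR, MPHOSPH8 and PPHLN1, works with SETDB1 and the ATPase MORC2 to silence young LINE-1 elements and integrated proviruses. ATRX and its partner DAXX deposit the histone variant H3.3 at repeats and telomeres, SUV39H2 writes H3K9 methylation, and CBX5 encodes HP1α, which reads it. In embryonic stem cells TRIM28 and SETDB1 are known for holding endogenous retroviruses silent.

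The totals were between 8655155 and 12024802 reads on genes per library. Between 380 and 14095 reads were counted on each of the 10 genes in a library. Levels are in TPM, the reads per length of all annotated exons of a gene, scaled to the same total in every library. The label of the cells was checked against markers: all 6 pluripotency genes examined were in the high class, with a summed level between 5101 and 5248 TPM. By library, the summed levels of the 3 markers each were 3.67 to 5.69 TPM for neuroectoderm, 2.42 to 3.17 TPM for mesoderm, 8.35 to 12.9 TPM for endoderm and 0.194 to 0.805 TPM for trophoblast. The fibroblast markers summed to 24.5 to 27.6 TPM, nearly all of it from COL1A2, with LUM and DCN at 0.178 and 0.0985 TPM. The neuroectoderm marker NEUROG2 had no read.

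All 10 genes were expressed, from 25.3 TPM for PPHLN1 to 944 TPM for TRIM28. In the scheme of the study, genes below 0.01 TPM are nonexpressed and the others are divided into 3 equal classes. Of the 10 genes, 9 were in the high class, above 26.96 TPM, against a background of 28.8% of 19629 protein-coding genes. PPHLN1 was in the medium class with the length of all exons. The median over the 10 genes was 41.5 TPM, and over all protein-coding genes it was 7.10 TPM. Each of the 10 had the same class in every library taken alone.

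**Figure D1:**
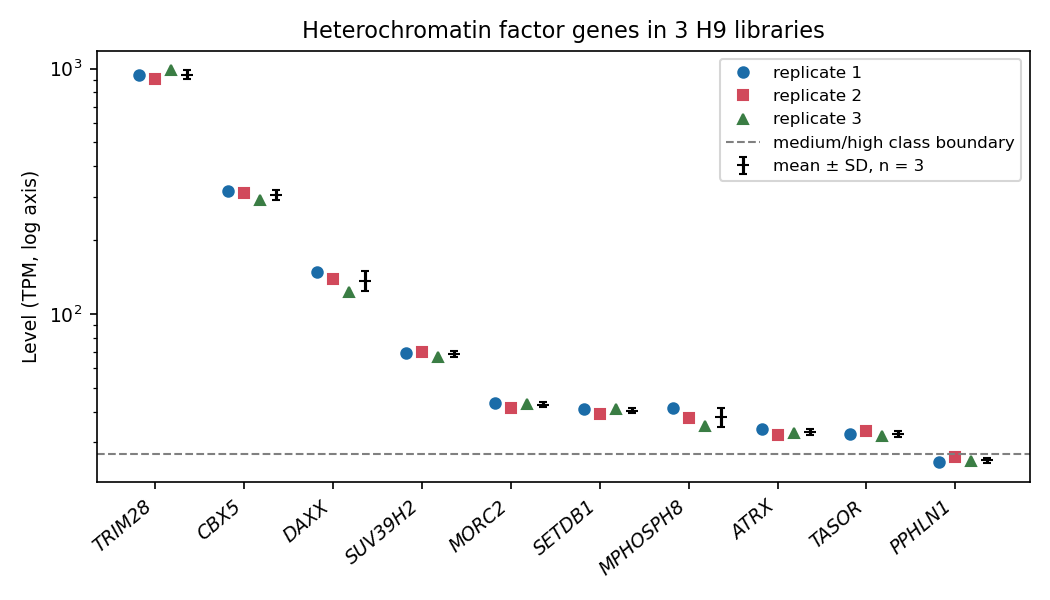
Level of each gene in TPM (log axis) in replicates 1, 2 and 3 (circles, squares and triangles), with the mean ± SD (n = 3) to the right and the boundary of the high class as a dashed line. TRIM28, CBX5 and DAXX stand above the others, and 5 genes lie between 32.5 and 42.7 TPM.

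Both partners of the KRAB zinc finger pathway were in the high class, but at very different levels. TRIM28 (ENSG00000130726, chromosome 19, 58544064 to 58550722, plus strand) had 941.6, 907.1 and 982.7 TPM in replicates 1, 2 and 3, a mean of 944 ± 37.9 (SD, n = 3). This placed it at rank 93 of the protein-coding genes. No other gene has exons over those of TRIM28 in the annotation. SETDB1 (ENSG00000143379, chromosome 1, 150926263 to 150964744, plus strand) had 40.8, 39.3 and 41.1 TPM, a mean of 40.4 ± 1.01 (SD, n = 3). TRIM28 was 23.4 ± 0.473 times SETDB1 in level (SD, n = 3). ATF7IP, the partner that stabilizes SETDB1, had 89.8 ± 1.52 TPM, which was 2.22 ± 0.0354 times SETDB1. With the longest or the canonical transcript as length, it was 1.99 or 1.98 times SETDB1.

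The level of SETDB1 carries a limit of its own. Of its exon length, 12.9% (948 bp) lies within exons of CERS2, a ceramide synthase gene on the opposite strand, and whether the counting used strand is not given in the sources used here. At the reads per kb of CERS2, these bases would hold 426, 495 and 377 reads, which is 54.3% to 56.5% of the 784, 876 and 673 reads on SETDB1. With those reads and bases removed, a setting chosen after seeing the data, SETDB1 had 20.6 ± 0.930 TPM (SD, n = 3) and was in the medium class. TRIM28 and ATF7IP were then 45.9 and 4.37 times SETDB1. This setting assumes that reads in the shared bases were counted on SETDB1, which no source used here states. The part of CERS2 reads in the level of SETDB1 was not tested.

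The 3 subunits of the HUSH complex had levels of the same order. MPHOSPH8, the subunit whose chromodomain binds methylated H3K9 (ENSG00000196199, chromosome 13, 19633659 to 19673441, plus strand), had 41.6, 37.8 and 34.9 TPM and a mean of 38.1 ± 3.35 (SD, n = 3). TASOR, the scaffold subunit (ENSG00000163946, chromosome 3, 56620132 to 56683265, minus strand), had 32.3, 33.5 and 31.8 TPM and a mean of 32.5 ± 0.868 (SD, n = 3). PPHLN1, which encodes periphilin (ENSG00000134283, chromosome 12, 42238447 to 42459715, plus strand), had 24.8, 26.0 and 25.2 TPM and a mean of 25.3 ± 0.607 (SD, n = 3). The order MPHOSPH8, TASOR, PPHLN1 held in all 3 libraries without overlap of their ranges. PPHLN1 was 0.669 ± 0.0640 times MPHOSPH8, and TASOR was 0.858 ± 0.0718 times it (SD, n = 3).

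This order rests on the length assigned to PPHLN1. All its annotated exons sum to 12155 bp, its longest transcript has 5975 bp and its canonical transcript 1859 bp. Over the canonical transcript, PPHLN1 had 99.99 ± 2.33 TPM (SD, n = 3), which made it the highest of the HUSH subunits, and TASOR had 23.7 ± 0.567 TPM. Over the longest transcript, PPHLN1 was also above MPHOSPH8, by 1.18 times. With either of these lengths PPHLN1 was in the high class, and with the canonical transcript TASOR was in the medium class. The counts are per gene and do not show which transcripts of PPHLN1 were present.

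MORC2, an ATPase that compacts chromatin at HUSH targets (ENSG00000133422, chromosome 22, 30925130 to 30968774, minus strand), had 43.4, 41.6 and 43.0 TPM and a mean of 42.7 ± 0.954 (SD, n = 3). Its antisense RNA MORC2-AS1 shares 1616 bp with exons of MORC2, which is 14.9% of their length. At the reads per kb of MORC2-AS1 these would hold 8.16% to 8.50% of the reads on MORC2. With those reads and bases removed, MORC2 was higher, at 46.0 ± 1.10 TPM (SD, n = 3). Among its paralogs, MORC3 had 19.1 ± 1.96 TPM and MORC4 9.02 ± 0.823 TPM (SD, n = 3). MORC1, known from germ cells, had no read in any library, where a count of 0 allows up to 3. Of the other genes on the list of HUSH partners, ZNF638, whose product recruits HUSH to unintegrated retroviral DNA, had 72.7 ± 0.495 TPM, and TASOR2, the paralog of TASOR, had 57.6 ± 7.27 TPM (SD, n = 3). TASOR2 was 1.77 ± 0.215 times TASOR, and its values were 64.6, 58.2 and 50.1 TPM.

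The promoters of MPHOSPH8, TASOR and MORC2 are shown because these genes act together at HUSH targets, and because the 250 bases before their start sites hold no annotated exon of any gene. Each is written 5′ to 3′ on the strand of its gene, from the RefSeq promoter table on GRCh38.p14. Capitals mark matches on either strand to GGGCGG, the box bound by SP and KLF factors, and to CCAAT. No matches to these motifs overlap one another.
MPHOSPH8 promoter, chr13:19633409-19633658, plus strand: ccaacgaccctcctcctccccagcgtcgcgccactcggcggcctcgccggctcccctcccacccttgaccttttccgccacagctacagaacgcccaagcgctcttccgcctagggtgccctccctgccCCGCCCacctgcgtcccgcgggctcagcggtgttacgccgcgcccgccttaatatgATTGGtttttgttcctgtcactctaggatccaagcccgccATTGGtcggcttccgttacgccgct
TASOR promoter, chr3:56683266-56683515, minus strand: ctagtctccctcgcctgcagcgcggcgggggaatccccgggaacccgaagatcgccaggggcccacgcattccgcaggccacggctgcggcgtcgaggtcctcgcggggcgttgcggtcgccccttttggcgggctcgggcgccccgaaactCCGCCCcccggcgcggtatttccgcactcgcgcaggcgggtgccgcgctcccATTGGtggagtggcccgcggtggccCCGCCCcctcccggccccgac
MORC2 promoter, chr22:30968775-30969024, minus strand: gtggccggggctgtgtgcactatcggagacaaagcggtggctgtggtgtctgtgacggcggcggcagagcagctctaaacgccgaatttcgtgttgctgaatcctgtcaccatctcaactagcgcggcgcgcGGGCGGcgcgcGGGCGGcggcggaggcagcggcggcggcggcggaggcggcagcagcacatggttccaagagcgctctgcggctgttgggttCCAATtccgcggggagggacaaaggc

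The windows of these 3 genes held 66.4%, 76.4% and 68.0% G and C and 26, 37 and 31 CpG dinucleotides, in that order, against medians of 58.0% and 11 over the 35116 windows of the table. MPHOSPH8 had CCAAT 65 and 25 bases before the start and GGGCGG at 121 bases. TASOR had GGGCGG at 98 and 21 bases and CCAAT at 46, and MORC2 had GGGCGG at 118 and 107 bases and CCAAT at 26. A promoter window was found for 7 of the 10 genes, and their CpG counts ran from 17 in CBX5 to 38 in SUV39H2. GGGCGG was found in 5 of these 7 windows and in 42.6% of all windows, and CCAAT in 4 of 7 and in 32.0%. SETDB1 and PPHLN1 had the ETS motif CCGGAAG instead, 9 and 12 bases before the start, which is found in 8.52% of all windows. None of the 7 windows held TATAAA, which 10.7% of all windows hold, or the 10-letter motifs searched for NRF1 and YY1, which 1.03% and 0.373% hold. A match is a description of the sequence and not a bound site.

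Start sites of other genes lay close upstream of several of the 10 genes. Distances are between starts of canonical transcripts. For 5 of the 10 genes a gene on the opposite strand started within 1000 bp upstream. The background was 19.8% of protein-coding genes and 29.5% of those in the high class. CBX5 lies 604 bp from the start of HNRNPA1, a splicing regulator at 674 ± 33.0 TPM (SD, n = 3). MORC2 lies 491 bp from TUG1 at 80.5 ± 0.936 TPM, and PPHLN1 lies 73 bp from ZCRB1 at 10.3 ± 0.846 TPM. The canonical start of PPHLN1 comes after base 42326166, inside the annotated span of the gene, and exons of ZCRB1 share 64 bp with those of PPHLN1. The divergent RNA of SUV39H2, SUV39H2-DT, starts 139 bp away and had 2.49 ± 1.72 TPM, and RN7SL525P, 486 bp from TRIM28, had 6.98 ± 3.17 TPM. Of these 5 neighbors, HNRNPA1 and TUG1 had a higher mean than the heterochromatin gene beside them, and the other 3 a lower mean.

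ATRX and DAXX, which act as a pair, were not at equal levels. DAXX, the histone H3.3 chaperone (ENSG00000204209, chromosome 6, 33318558 to 33323016, minus strand), had 148.7, 138.9 and 122.6 TPM, a mean of 137 ± 13.2 (SD, n = 3). ATRX, the remodeling ATPase (ENSG00000085224, chromosome X, 77504880 to 77786233, minus strand), had 33.9, 32.1 and 32.9 TPM, a mean of 32.9 ± 0.911 (SD, n = 3). DAXX was thus 4.15 ± 0.364 times ATRX per length of exon, although ATRX had more reads, with 5871 over the libraries against 3329. The ratio was 3.73 in replicate 3 and 4.33 or more in the others. With the canonical transcript as length it was 2.46. The exons of ATRX sum to 22740 bp, and its canonical transcript has 11165 bp. In the other route of H3.3 deposition, HIRA had 17.6 ± 0.865 TPM, UBN1 46.8 ± 2.02 TPM, UBN2 38.1 ± 4.84 TPM, CABIN1 63.3 ± 2.57 TPM and ASF1A 73.9 ± 7.17 TPM (SD, n = 3). The genes for H3.3 itself, H3-3A and H3-3B, had 548 ± 28.0 and 289 ± 8.13 TPM (SD, n = 3).

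CBX5 (ENSG00000094916, chromosome 12, 54230942 to 54280133, minus strand) had 315.6, 309.7 and 290.1 TPM, a mean of 305 ± 13.4 (SD, n = 3). The genes for its paralogs HP1β and HP1γ, CBX1 and CBX3, had 287 ± 16.6 and 212 ± 7.98 TPM (SD, n = 3). CBX5 therefore held 38.0 ± 0.142%, CBX1 35.6 ± 0.722% and CBX3 26.4 ± 0.586% of the summed level of HP1 genes. In each library CBX5 was above CBX1, by 1.07 ± 0.0253 times, yet the ranges of both over the libraries overlapped. In reads the difference was 5.26 ± 0.125 times, over exons that sum to 15038 bp in CBX5 and 3044 bp in CBX1. The canonical transcript of CBX5 has 11546 bp, of which 93.7% is 3′ untranslated region and 576 bp are coding. The order of the HP1 genes turned with the canonical transcript as length. CBX3 was then highest at 38.4% of the HP1 level, CBX1 held 30.9% and CBX5 30.7%, and CBX5 was 0.995 times CBX1. With the longest transcript CBX3 was also highest, at 38.9%, with CBX5 at 32.1% and CBX1 at 29.0%. Exons of HNRNPA2B1 on the opposite strand share 368 bp with CBX3 and at their reads per kb would hold 17.0% to 18.4% of its reads. The annotated pseudogene CBX5P1 had 3 reads over all libraries, against 36132 on CBX5, and the 10 annotated pseudogenes of CBX3 had 17 against 8080.

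Among the H3K9 methyltransferases, SUV39H2 (ENSG00000152455, chromosome 10, 14878820 to 14904315, plus strand) had 69.5, 70.3 and 66.7 TPM, a mean of 68.8 ± 1.86 (SD, n = 3). Its paralog SUV39H1 had 28.5 ± 0.729 TPM, with 724 reads in all, and SUV39H2 was 2.41 ± 0.0988 times it (SD, n = 3). A lncRNA on the opposite strand shares 685 bp with SUV39H1, or 21.2% of its exon length. At the reads per kb of the lncRNA these would hold 15.4% to 18.4% of the reads on SUV39H1. EHMT2, which mainly places dimethylation, was highest of the 6 enzymes at 110 ± 6.28 TPM, its partner EHMT1 had 33.1 ± 1.67 TPM and SETDB2 had 6.59 ± 0.227 TPM (SD, n = 3). SUV39H2 and SETDB1 held 24.0 ± 1.15% and 14.1 ± 0.112% of the summed level of these enzymes, and EHMT2 held 38.3 ± 1.37%. The share of SETDB1 was 7.56% with the opposite-strand overlap removed. That of SUV39H2 was 16.8% or 15.0% with the longest or the canonical transcript as length. EHMT1 then held 19.8% or 27.0%, above SUV39H2, where it held 11.5% with all exons.

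**Figure D2:**
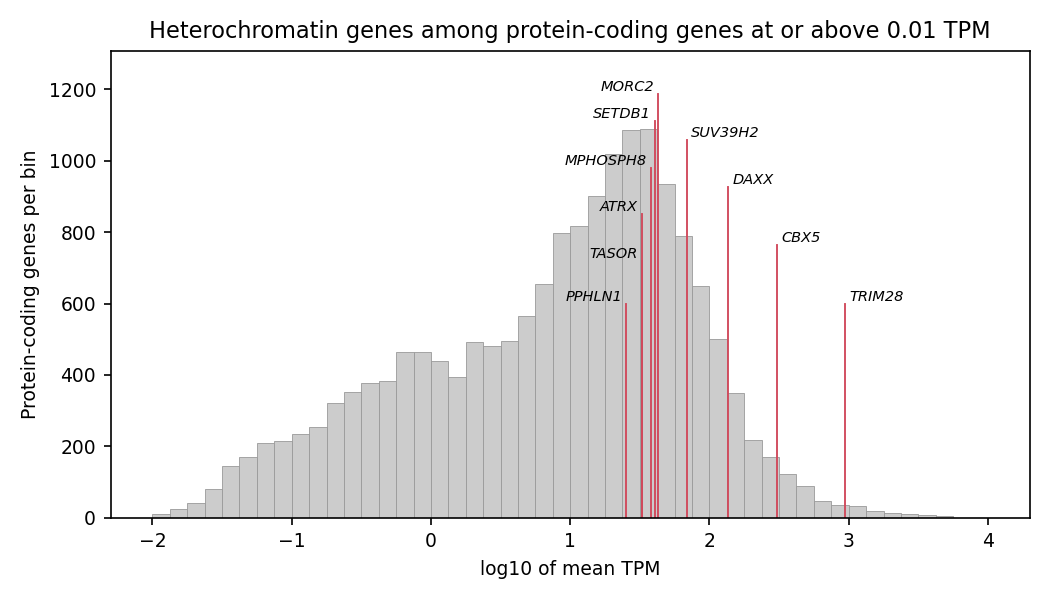
Number of protein-coding genes by log10 of mean TPM over the 3 libraries, for genes at or above 0.01 TPM (bars), with the 10 heterochromatin genes as vertical lines whose height carries no value. PPHLN1 lies at 25.3 TPM and TRIM28 at 944 TPM, in the upper tail.

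In the order of mean level, TRIM28 was followed by CBX5, DAXX, SUV39H2, MORC2, SETDB1, MPHOSPH8, ATRX, TASOR and PPHLN1. TRIM28 was 3.09 times CBX5, CBX5 was 2.23 times DAXX and DAXX was 1.99 times SUV39H2. The ranges of neighbors over the 3 libraries were apart except for SETDB1 and MPHOSPH8, and for ATRX and TASOR. SETDB1 was above MPHOSPH8 in 2 of 3 libraries, and ATRX above TASOR in 2 of 3. MORC2 and SETDB1 were apart by only 1.06 times, and the CERS2 overlap given above is larger than that difference. At the reads per kb of their neighbors, exons shared with PRICKLE1 would hold 2.31% and those shared with ZCRB1 0.214% of the reads on PPHLN1, those shared with CCDC66 0.969% of the reads on TASOR, and those shared with DCLRE1C 0.262% of the reads on SUV39H2. A lncRNA on the strand of PPHLN1 (ENSG00000257225) would hold 2.35% of its reads. DAXX shares 441 bp with ENSG00000285064 on its own strand, and CBX5 holds the 80 bp of MIR3198-2, neither of which was analysed here.

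**Figure D3:**
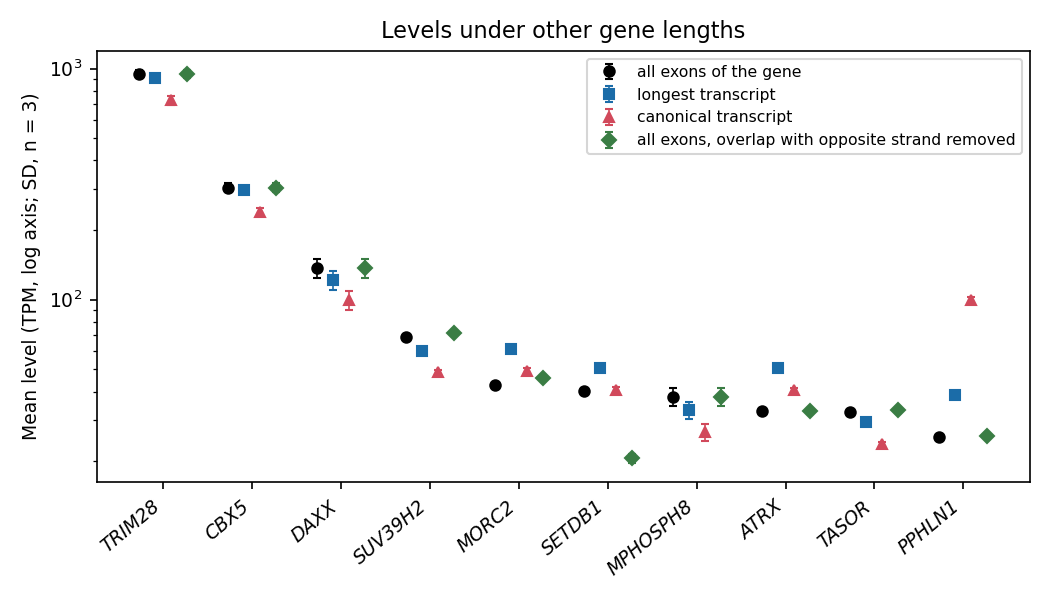
Mean TPM ± SD (n = 3, log axis) of the 10 genes with the length of all exons (circles), of the longest transcript (squares) or of the canonical transcript (triangles). Diamonds are with bases shared with opposite-strand genes removed, along with the reads these would hold at the reads per kb of those genes. PPHLN1 runs from 25.3 TPM with all exons to 99.99 TPM with its canonical transcript. SETDB1 drops to 20.6 TPM with this estimate removed, and TRIM28 and CBX5 are the highest throughout.

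The lists of related genes hold 51 genes besides the 10, with a median of 33.1 TPM. By mean level 29 of them were in the high class, against a background of 28.8% of protein-coding genes. The same background applies to the counts by list, which are of few genes. Of the 29, SUV39H1 was in the medium class in replicates 1 and 3 taken alone, and ZNF91 in replicate 3. Of 8 other genes of heterochromatin maintenance, all 8 were high. SUMO2, whose product modifies TRIM28, had 269 ± 14.1 TPM, and CHAF1B, of the chromatin assembly factor CAF-1, had the lowest level on that list at 33.2 ± 0.279 TPM (SD, n = 3). Of 8 H3K9 demethylases, 4 were high, from KDM3B at 124 ± 4.97 TPM, and 4 were medium, down to KDM4D at 3.72 ± 0.610 TPM. KDM4D was medium by its mean only, and was in the low class in every library taken alone. None of the 3 H4K20 methyltransferases was high, with KMT5B at 23.5 ± 0.978 TPM and KMT5C at 11.0 ± 2.79 TPM (SD, n = 3).

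The KRAB zinc finger genes, whose products lead TRIM28 to its targets, were uneven. ZNF93, a repressor of LINE-1 elements, had 50.8 ± 3.43 TPM, ZNF649 had 31.2 ± 1.74 TPM and ZNF91, a repressor of SVA elements, had 29.8 ± 0.857 TPM (SD, n = 3). ZNF445, which guards imprints, had 17.96 ± 0.635 TPM. ZFP57, the other guardian of imprints on the list, had 0, 4 and 8 reads, and ZNF534 had 1 read in all. The 7 genes of the piRNA pathway, which silences transposons in germ cells, were all in the low class, from DDX4 with 0, 1 and 1 reads to PIWIL2 with 42, 51 and 32 reads (2.75 ± 0.218 TPM, SD, n = 3).

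The spread between libraries was compared with the error of counting alone, as coefficients of variation (CV) of CPM, the counts scaled to the same total in every library. The CV was from 1.64% for SUV39H2 to 8.49% for DAXX, with a median of 2.94% over the 10 genes. Over 9386 protein-coding genes with at least 100 counts in every library, the median was 5.28%. These sets are not matched in reads. The counting error was 0.922% to 4.58% for the 10 genes, and its median over the 9386 genes was 4.44%. For 3 of the 10 genes the CV was more than 2 times the counting error. The background, likewise not matched in reads, was 23.8% of those 9386 genes. TRIM28 had 5.07% where counting gives 0.976%, CBX5 had 3.18% where it gives 0.922%, and DAXX had 8.49% where it gives 3.06%. SUV39H2, TASOR, PPHLN1, MORC2 and SETDB1 varied less than their counting error, so that at this depth no spread beyond it was detectable for them. Replicates are few, and PCR copies are not independent molecules, so that the counting error is a lower limit.

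**Figure D4:**
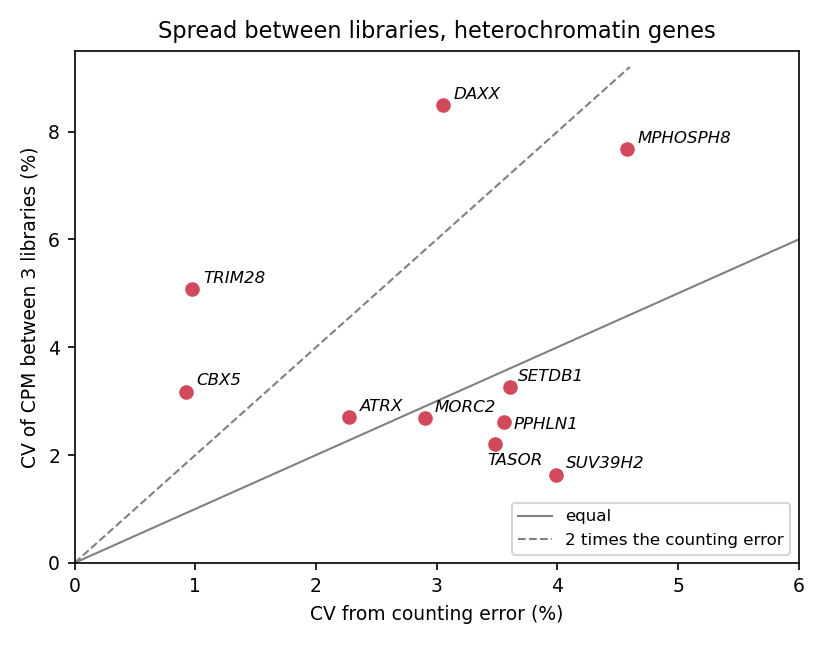
CV of CPM between the 3 libraries against the CV that counting error gives, both in percent, for the 10 genes. The solid line marks equal values and the dashed line 2 times the counting error, with DAXX, TRIM28 and CBX5 above the dashed line.

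Replicate 3, the library with the fewest reads, was lowest in CPM for 4 of the 10 genes, DAXX, MPHOSPH8, CBX5 and SUV39H2, against a background of 39.4% of the 9386 genes. It was highest for TRIM28, MORC2 and SETDB1. Its log2 ratio to the mean of the other libraries ran from -0.20 for DAXX and -0.16 for MPHOSPH8 to 0.12 for TRIM28. TRIM28 has the highest GC content of the 10 canonical transcripts, at 64.2%, yet DAXX is next at 54.8%. Over the 10 genes the Spearman correlation of this ratio with GC content was 0.18, and over the 9386 genes it was 0.43. These are descriptions across genes that share the same libraries, and the part of GC content in the levels was not tested.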

How the data were processed

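Total RNA of untreated H9 cells was sequenced in 3 replicates. Per the labels and the methods of the study, the authors trimmed reads with Trim Galore (0.4.4) and aligned them to GRCh38 with TopHat2 (2.1.1). The deposited values are whole-number counts of reads per gene, without normalization. No source used here names the counter, its gene models or whether it read strand. Identifiers were matched to GENCODE release 44 (56948 of 58051 matched). Here, counts were divided by the length of the union of exons and scaled to TPM, whereas the study used Cufflinks. Means, SDs and ratios were taken over the 3 libraries, with ratios formed within a library. Ranges of neighbors in the order were compared without a test. Genes named are the 10, their paralogs, partners and overlapping genes, and the highest and lowest of each related list. The other KRAB genes and the divergent neighbors were named after their values were seen. Members and lists were chosen with earlier results of these data known. Alternatives were other gene lengths, TMM factors (edgeR 4.0.16), DESeq2 (1.42.0) size factors, filters, thresholds and leaving out each replicate; removal of opposite-strand overlap, and the alternatives for further ratios and shares, were added after seeing the data. Scripts ran in R 4.3.3 and, with pandas 2.3.3 and numpy 2.4.6, in Python 3.11.15. The level and class steps were tested on simulated data. Values after ± are SDs between the libraries, and the counting error is given apart from them.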

Additional observations from a re-analysis of the deposited data

How the results depend on the processing

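With the longest or the canonical transcript as length, the median over the 10 genes was 55.2 or 48.8 TPM (41.5 with all exons), the Spearman correlation with the main order 0.927 or 0.636, the ratio of DAXX to ATRX 2.41 or 2.46, SETDB1 5.56% or 5.58% of TRIM28 (4.28%), CBX5 32.1% or 30.7% of the HP1 level, and the lowest HUSH subunit 0.761 or 0.237 times the highest (0.669). SUV39H2 was 2.57 times SUV39H1 with the longest transcript. With either length CBX3 held the largest share of the HP1 level, and EHMT1 was above SUV39H2. PPHLN1 was above MPHOSPH8 with the longest or the canonical transcript, by 1.18 or 3.78 times (0.669), and CBX5 was 0.995 times CBX1 with the canonical transcript (1.07). Without mitochondrial genes the median was 43.3 TPM, the remaining genes then sharing the whole scale. With opposite-strand overlap removed, SETDB1 was 2.18% of TRIM28, CBX5 39.1% of the HP1 level, and the correlation with the main order 0.867. MORC2 and SUV39H2 then rose to 46.0 and 71.9 TPM. TMM factors, DESeq2 size factors and the filter on low counts moved no mean of the 10 genes by more than its SD.

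Leaving out each replicate gave a correlation with the main order of 0.988 without replicate 1 and 1.00 otherwise. Across alternatives run for each, the high class held 7 to 10 of the 10 genes and 24 to 38 of the 51 related genes. The fewest were with a nonexpressed threshold of 1 TPM, where the class began at 37.9 TPM. TASOR and ATRX then joined PPHLN1 in the medium class. With the filter on low counts, TASOR joined PPHLN1 there. The 38 were with all matched genes as the base of the classes, where the high class began at 8.57 TPM. The background of 28.8% belongs to the main boundary of 26.96 TPM. At other boundaries the share of all protein-coding genes was not computed. Replicate 3 was lowest by TPM for 5 of the 10 genes and for 48.2% of the 9386 genes, and by CPM for 4 and for 39.4%. No paired analysis was possible because there is 1 condition. Depth limits genes with few reads, such as ZFP57 and MORC1.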
